A study of Sus scrofa with 150 samples.

Results

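Triglyceride is built in the liver by adding fatty acids to glycerol 3-phosphate in a short chain of reactions on the endoplasmic reticulum and the outer mitochondrial membrane. GPAM adds the first fatty acid and gives lysophosphatidic acid, AGPAT2 adds the next and gives phosphatidic acid, LPIN1 removes the phosphate and gives diacylglycerol, and DGAT1 and DGAT2 add the last fatty acid. In liver the product is stored in lipid droplets or leaves the cell in very low density lipoprotein, and LPIN1 also acts in the nucleus as a partner of PPARGC1A and PPARA, regulators of the response to fasting. These 5 enzymes were followed through all the livers of the series, and they were chosen by name from the symbols of the array's annotation. All 5 genes were found, on 9 of the 23999 probe sets tested: 3 for GPAM, 2 each for LPIN1 and DGAT1 and 1 each for AGPAT2 and DGAT2.

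Each of 150 pigs gave 1 liver RNA sample, read on its own Affymetrix array of pig genes. The pigs belonged to a single commercial cross, labelled Pix(DLxDE), and their livers were taken at slaughter at a mean end weight of 110 kg. There was no treatment, no control and no second genotype, and age, sex and family were not among the labels used here. For each pig the labels gave 2 traits. Fat area, measured on the long back muscle, was 15.2 cm2 on average (SD 3.25, n = 150; from 8.1 to 26.7 cm2). Drip loss, the share of weight that a piece of this muscle loses on hanging, was 5.54% on average (SD 2.12, n = 150; from 1.45 to 10.82%). Since every pig is its own sample, the spread given here is that between pigs and arrays together. In whole liver, more cells of a type and more RNA per cell cannot be told apart.

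The levels are log2 values with a floor at 4.09, where 2.75% of all values lay. Of the 150 arrays, 13 stood apart by a low correlation with the others, and part of the results are given without them too. Hepatocyte markers were bright in every liver: all 14 measured had a mean above that of the median probe set, and their mean level ran from 13.20 to 13.51 over the pigs. Adipocyte markers matter here because fat cells carry the same enzymes. Of the 8 measured, ADIPOQ, the fat cell hormone, had a mean of 5.07 (SD 0.186, n = 150), FABP4 5.48 (SD 0.437, n = 150) and LIPE 4.63 (SD 0.135, n = 150), while the brightest was CFD, a complement protease, with 8.49 (SD 0.315, n = 150). Of the 8, 3 had a mean above that of the median probe set and none was at the floor in every pig. Their mean ran from 5.48 to 6.17 over the pigs, and its r with the 5 enzymes lay between -0.181 for AGPAT2 and 0.105 for LPIN1.

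The 5 enzymes were measured well above the floor, but they differed in how much they varied from pig to pig. Where a gene had several probe sets, the brightest stands for it, and the others are numbered after it. Levels of different probe sets cannot be compared, because each binds its own probes, so only the spread is set side by side. For reference, the median SD over all probe sets was 0.259 on the log2 scale, with quartiles of 0.208 and 0.350.

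LPIN1, the phosphatidic acid phosphatase, varied most among the 5. Its level was 6.95 in the lowest pig, 9.13 at the median and 11.50 in the highest (mean 9.09, SD 0.841, n = 150). This is a 23.4-fold range, and the upper quartile lay 2.23-fold above the lower. The SD exceeded that of 99.4% of all probe sets. Its other probe set gave the same picture, with 4.77, 8.58 and 10.98 for the lowest, median and highest pig (mean 8.54, SD 1.06, n = 150), and the rank correlation of the pigs between both was 0.894.

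GPAM, which starts the chain, ran from 8.15 through a median of 9.68 to 11.11 (mean 9.74, SD 0.459, n = 150), a 7.78-fold range. Most pigs lay close together, the quartiles being 1.38-fold apart, with a few pigs far above and below. GPAM 2 ran from 5.24 through 7.26 to 8.65 (mean 7.25, SD 0.618, n = 150). GPAM 3 was dim, from the floor at 4.09 through 5.06 to 6.22, with 2 pigs at the floor.

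The remaining enzymes were flatter. AGPAT2, the acyltransferase whose loss causes a congenital lack of fat tissue, ran from 7.83 through 8.46 to 9.48 (mean 8.49, SD 0.313, n = 150). DGAT1 ran from 7.93 through 8.74 to 9.29 (mean 8.71, SD 0.288, n = 150), the narrowest range of the 5 at 2.57-fold. DGAT2, which in liver mainly handles newly made fatty acids, ran from 9.15 through 10.54 to 11.36 (mean 10.48, SD 0.372, n = 150). DGAT1 2 was wider, from 4.72 through 6.70 to 7.55 (mean 6.68, SD 0.381, n = 150), and its lowest pig stood apart, the next lowest being at 5.53.

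**Figure D1:**
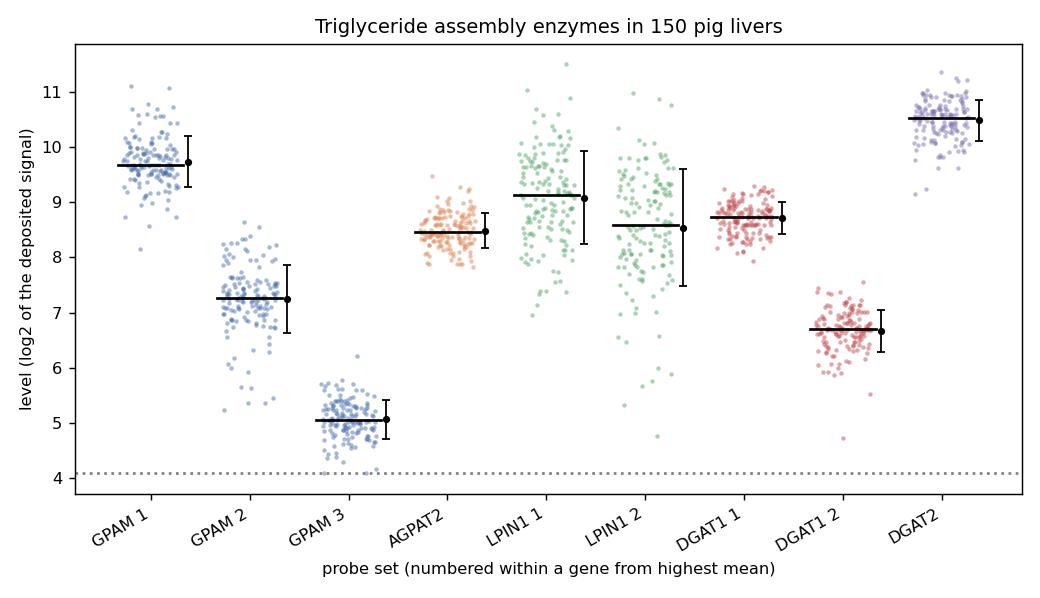
Level of each probe set of the 5 enzymes (y axis, log2 of the deposited signal) in each of 150 pig livers (points); black lines are medians, bars are the mean and SD, and the dotted line is the floor at 4.09. LPIN1 spreads widest on both of its probe sets, while AGPAT2 and DGAT1 1 stay within a narrow band.

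Whether the steps of the chain were raised and lowered together was asked by comparing the enzymes pig by pig. They did not move as a single block. AGPAT2, DGAT1 and DGAT2, the enzymes of the second and last acylation, went up and down together, DGAT2 also went with LPIN1, and GPAM stood largely by itself. Of the 10 pairs of genes, 4 passed the test, each in both directions of the fit (limma, adjusted over all probe sets). Many other transcripts passed as well, so these counts are to be read against the share of all probe sets called with each enzyme: 18.6% with AGPAT2, 44.4% with DGAT1, 18.3% with DGAT2, 5.13% with LPIN1 and 14.9% with GPAM.

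The closest pair was DGAT1 and DGAT2, unrelated proteins that catalyse the same last step. Pearson's r was 0.524 (95% interval 0.397 to 0.631; permutation p = 1e-05, the smallest possible; n = 150) and Spearman's rho 0.532 (permutation p = 1e-05), with an adjusted p of 5e-09 in limma. Leaving out the 2 most extreme pigs in DGAT1 level gave an r of 0.507. The r was positive in all 10 blocks of 100 title numbers (from 0.195 to 0.764). Of all probe sets 0.108% had a higher r with DGAT2 than DGAT1 had, and 0.85% had a higher r with DGAT1 than DGAT2 had. DGAT1 2 was related to DGAT2 less closely, with an r of 0.224 (permutation p = 0.0066; rho 0.177, permutation p = 0.0307).

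AGPAT2 and DGAT1 followed, with r = 0.483 (95% interval 0.350 to 0.597; permutation p = 1e-05; n = 150), rho = 0.459 (permutation p = 1e-05) and an adjusted p of 5.24e-08 in limma. Leaving out the 2 most extreme pigs in AGPAT2 level gave an r of 0.504, and 9 of the 10 title blocks had a positive r (from -0.279 to 0.815). This relation rests on which probe set stands for DGAT1: with DGAT1 2, r was -0.0894 (permutation p = 0.277; rho -0.0244, permutation p = 0.767), and without those pigs it was 0.0529. The 2 probe sets of DGAT1 shared only part of their variation, with an r of 0.377 (permutation p = 2e-05; rho 0.439, permutation p = 1e-05).

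Values of the arrays differed between the 2 probe sets of DGAT1 as well. The difference of the actin control probe sets at the 3 prime and 5 prime ends, a sign of RNA integrity, had an r of -0.297 with DGAT1 1 and of 0.238 with DGAT1 2, and of -0.355 with AGPAT2. The number in the pigs' titles, whose meaning is not given, had an r of 0.131 with DGAT1 1 and of 0.358 with DGAT1 2. The mean of the adipocyte markers had an r of -0.0125 with DGAT1 1 and of 0.415 with DGAT1 2. That of 4 exocrine pancreas markers, of which 1 had a mean above that of the median probe set, had 0.330 and 0.440. With the actin and GAPDH differences as covariates AGPAT2 and DGAT1 1 passed too. The part of RNA integrity and of these markers in the disagreement of the probe sets was not tested.

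AGPAT2 and DGAT2 had r = 0.367 (95% interval 0.220 to 0.498; permutation p = 1e-05; n = 150), rho = 0.355 (permutation p = 1e-05) and an adjusted p of 0.000133 in limma, and an r of 0.344 without the 2 most extreme pigs. The relation was positive in all 10 title blocks (from 0.109 to 0.760). DGAT2 and LPIN1 had r = 0.334 (95% interval 0.183 to 0.469; permutation p = 3e-05; n = 150), rho = 0.305 (permutation p = 0.00026) and an adjusted p of 0.00194 in limma, and an r of 0.294 without the 2 most extreme pigs. It was positive in 7 of the 10 title blocks (from -0.407 to 0.669). LPIN1 2 gave r = 0.271 with DGAT2 (permutation p = 0.00089). This pair no longer passed with 5 principal components as covariates, where the partial r was 0.132 (adjusted p = 0.465). The mean of the 6 macrophage markers measured, of 10 listed, ran from 8.14 to 10.1 over the pigs and 5 of the 6 lay above the median probe set. This mean had an r of -0.254 with DGAT2, of -0.232 with LPIN1 and of only -0.0677 with LPIN1 2. Its part in the relation of DGAT2 and LPIN1 was not tested.

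**Figure D2:**
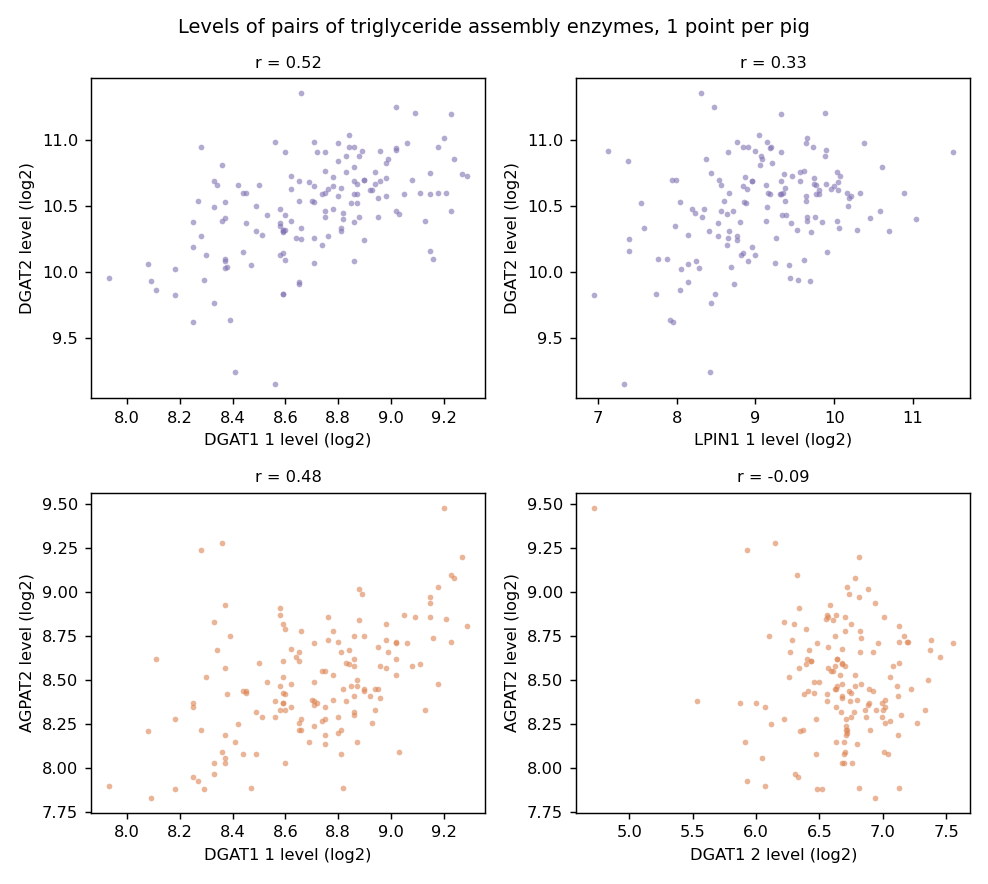
Levels of 4 pairs of probe sets (both axes log2), 1 point per pig, n = 150. DGAT2 rises with DGAT1 1 and with LPIN1 1; AGPAT2 rises with DGAT1 1 (r = 0.48) and shows no such slope against DGAT1 2 (r = -0.09), where a single pig at 4.72 lies far to the left.

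GPAM was the enzyme least tied to the rest. With DGAT2 it had r = 0.214 (95% interval 0.0559 to 0.362; permutation p = 0.00843; n = 150) and rho = 0.243 (permutation p = 0.00269), but an adjusted p of 0.0523 in limma, and an r of 0.126 without the 2 most extreme pigs in DGAT2 level. Over the 16 alternatives its adjusted p ran from 0.0229 to 0.700, with 8 below the threshold. Without the 13 arrays that stand apart r was 0.130 (adjusted p = 0.385). GPAM 2 and GPAM 3 had r of 0.232 and 0.190 with DGAT2. Its r with AGPAT2 was -0.0170 (95% interval -0.177 to 0.144), with DGAT1 0.0441 (-0.117 to 0.203) and with LPIN1 0.0331 (-0.128 to 0.192), with adjusted p values of 0.921, 0.779 and 0.899. The intervals allow weak relations in either direction. The 3 probe sets of GPAM did follow each other, with r from 0.509 to 0.691. The other 4 enzymes together accounted for 6.34% of the variance of GPAM, against 18.1% for LPIN1, 31.03% for AGPAT2, 37.4% for DGAT1 and 41.9% for DGAT2.

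LPIN1 had r = -0.112 with AGPAT2 (95% interval -0.268 to 0.0489; permutation p = 0.174) and 0.125 with DGAT1 (-0.0361 to 0.280; permutation p = 0.128), and neither passed in limma (adjusted p = 0.539 and 0.474). Its 2 probe sets had r = 0.872 with each other, the highest r of LPIN1 1 with any probe set on the array. A component analysis of the 5 enzymes gave the same arrangement in a description without a test. The leading component held 39.8% of the variance, with weights of 0.596 for DGAT2, 0.584 for DGAT1, 0.478 for AGPAT2, 0.226 for LPIN1 and 0.154 for GPAM. The next held 23.5% and set LPIN1 (0.699) and GPAM (0.406) against AGPAT2 (-0.517). The one after it held 19.5% and set GPAM (0.869) against LPIN1 (-0.485). The r of LPIN1 and GPAM with each other was 0.0331.

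**Figure D3:**
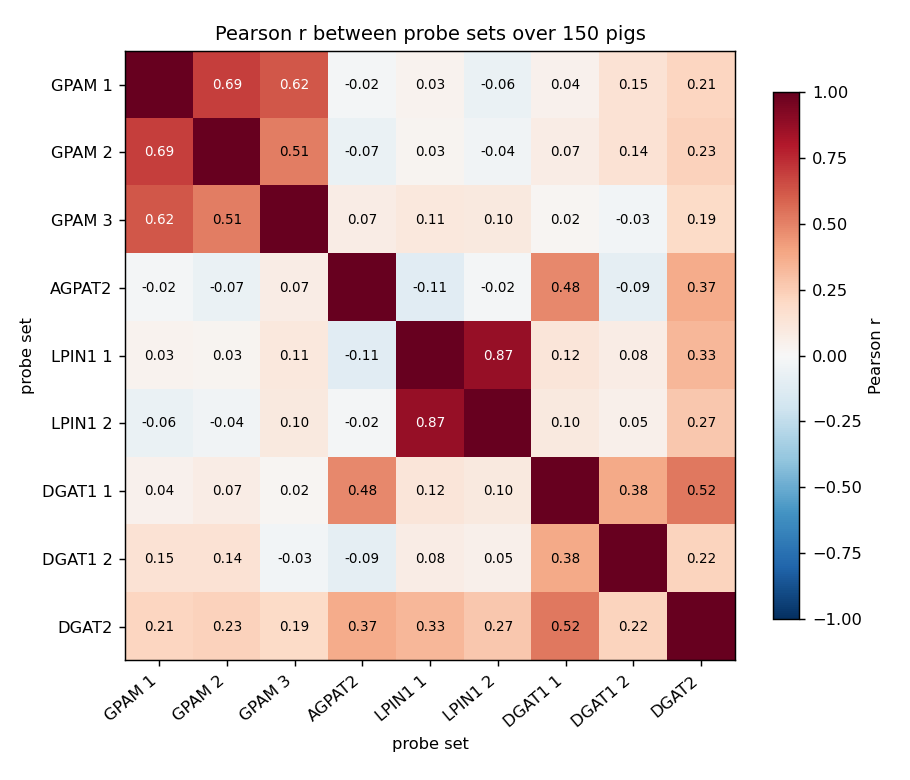
Pearson r between all pairs of the 9 probe sets over 150 pigs (colour and number). The 2 probe sets of LPIN1 (0.87) and the 3 of GPAM (0.51 to 0.69) form blocks, DGAT1 1, DGAT2 and AGPAT2 share moderate positive values, and DGAT1 2 does not follow AGPAT2 (-0.09).

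The comparison with fat area asked whether pigs with more back fat had higher levels of these enzymes in the liver. All 5 slopes were positive, with a median log2 change of 0.070 for each SD of fat area against 0.00025 over all probe sets, of which 50.5% were positive. None of the 5 passed limma's test over all probe sets; 2 of 5 had an unadjusted p under 0.05. Of all probe sets 30 were called, or 0.125% (0.0792% as higher and 0.0458% as lower with more fat), and 1699 had an unadjusted p under 0.05. With the mean level of Y-linked genes as a covariate 0.00417% were called. The 5 enzymes share their pigs and are related to each other, so 5 positive slopes are not 5 separate results.

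AGPAT2 had the smallest p of the 5. In the 30 pigs with the smallest fat area its level ran from 7.89 through a median of 8.45 to 8.97 (mean 8.44, SD 0.271), and in the 30 with the largest from 8.09 through 8.68 to 9.28 (mean 8.68, SD 0.258). The means differed 1.18-fold, and the ranges overlapped widely. The groups of 30 between them had means of 8.50, 8.34 and 8.49 in order of fat area, so the level did not climb evenly and the fattest group lay above the other 4. The slope was 0.078 (SE 0.0249, 95% interval 0.029 to 0.127, adjusted p = 0.256, limma, n = 150), with an r of 0.249 (permutation p = 0.00202; rho 0.224, permutation p = 0.00639). Leaving out the 2 most extreme pigs in fat area gave an r of 0.280. It is 1 of 18 relations of a probe set with a trait that were computed.

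The pigs fell into 73 with low and 77 with high levels of the Y-linked gene EIF1AY, split by a wide gap on its log2 scale between 4.72 and 5.64. Within the low group the r of AGPAT2 with fat area was -0.0126, and within the high group 0.328. The difference of the slopes, tested after these values were seen, was 0.11 (SE 0.0542, p = 0.0426) and did not pass over all probe sets (adjusted p = 0.576, limma). Over the 16 alternatives, a covariate for the Y-linked genes among them, the slope of AGPAT2 lay between 0.064 and 0.084 and its adjusted p between 0.0918 and 0.559. Title blocks changed the relation little: r was positive in 8 of the 10 blocks and 0.238 with block means removed. The difference of slopes between the EIF1AY groups was computed for all 9 probe sets of the enzymes and both traits. On drip loss it was 0.12 for DGAT1 (SE 0.0465, p = 0.0128) and 0.28 for LPIN1 (SE 0.135, p = 0.0412). Neither passed (adjusted p = 0.999856, limma), and the remaining ones had an unadjusted p above 0.05.

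DGAT2 had a slope of 0.070 (SE 0.0298, 95% interval 0.011 to 0.129, adjusted p = 0.553), with an r of 0.189 (permutation p = 0.0202; rho 0.182, permutation p = 0.0256). Its mean was 10.40 (SD 0.471) in the 30 leanest pigs and 10.59 (SD 0.273) in the 30 fattest. Over the 5 groups of 30 its SD was 0.471, 0.445, 0.316, 0.305 and 0.273 from the leanest to the fattest, which is a description without a test. LPIN1 had the largest slope and the largest error, 0.11 (SE 0.0674, 95% interval -0.019 to 0.248, adjusted p = 0.777), with means of 8.79 (SD 0.736) in the leanest and 9.19 (SD 0.862) in the fattest 30 pigs. The slope was 0.035 for DGAT1 (SE 0.0235, adjusted p = 0.837) and 0.045 for GPAM (SE 0.0371, adjusted p = 0.904). Adding 5 principal components to the fit gave slopes of 0.030 for DGAT2, 0.055 for LPIN1, 0.019 for DGAT1 and -0.025 for GPAM. With the hepatocyte marker mean, which had an r of 0.239 with fat area, that of LPIN1 was 0.073, and with the Y-linked mean that of GPAM was 0.011. The other probe sets of these genes had slopes from -0.0022 for GPAM 3 to 0.093 for LPIN1 2, and none of the 9 passed.

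The comparison with drip loss asked the same of the water lost by the muscle. Again none of the 5 enzymes passed limma's test, 0 of 5 had an unadjusted p under 0.05, and of all probe sets 0 were called, or 0%, while 2638 had an unadjusted p under 0.05. The slopes were -0.047 for AGPAT2 (SE 0.0254, adjusted p = 0.481), -0.039 for DGAT1 (SE 0.0235, adjusted p = 0.523) and -0.027 for DGAT2 (SE 0.0303, adjusted p = 0.739), and 0.078 for LPIN1 (SE 0.0677, adjusted p = 0.657) and 0.033 for GPAM (SE 0.0372, adjusted p = 0.744). The 3 enzymes that went together had negative values and the other 2 positive ones, with a median of -0.027 against 0.0043 over all probe sets. For GPAM the sign held only on its brightest probe set: GPAM 2 and GPAM 3 had slopes of -0.0083 and -0.0068. LPIN1 2 had 0.073. With the title blocks as a covariate the slope of LPIN1 was 0.0075, and with the 3 prime to 5 prime differences that of AGPAT2 was -0.020 and that of DGAT1 -0.016. The intervals reached from -0.097 for AGPAT2 to 0.212 for LPIN1 and all 5 included 0. DGAT1 2 had the lowest unadjusted p of the 9, with a slope of -0.072 (SE 0.0305, adjusted p = 0.381), an r of -0.189 (permutation p = 0.0192; rho -0.182, permutation p = 0.0258), and an r of -0.122 with the means of the title blocks removed.

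LPIN1 was high at both ends of drip loss. Its mean was 9.24 (SD 0.719) in the 30 pigs with the least drip loss, 8.95 (SD 0.786), 8.72 (SD 0.654) and 8.99 (SD 0.981) in the next groups of 30 and 9.54 (SD 0.838) in the 30 with the most. A squared term, added after these means were seen, had an estimate of 0.23 (SE 0.0597, p = 0.000212) for LPIN1 and of 0.26 (SE 0.0759, p = 0.000757) for LPIN1 2. Neither passed over all probe sets, where 0 were called, or 0%, 781 had an unadjusted p under 0.05 and the smallest adjusted p was 0.999994 (limma). Since the shape was picked from the data, the unadjusted p values are no independent evidence for it. The squared term was computed for every probe set of the enzymes and for both traits. On fat area it was 0.043 for DGAT1 (SE 0.0167, p = 0.0114, adjusted p = 0.704, limma). On drip loss it was 0.056 for the dimmest probe set of GPAM (SE 0.0259, p = 0.0330, adjusted p = 0.999994, limma). The remaining squared terms had an unadjusted p above 0.05.

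The slopes on the 2 traits differed from each other in no enzyme past the threshold. The difference, fat area minus drip loss, was 0.12 for AGPAT2 (SE 0.0337, adjusted p = 0.288), 0.090 for DGAT2 (SE 0.0406, adjusted p = 0.580) and 0.069 for DGAT1 (SE 0.0319, adjusted p = 0.596), and 3 of 5 had an unadjusted p under 0.05. For LPIN1 it was 0.034 (SE 0.0915) and for GPAM 0.012 (SE 0.0505). Over all probe sets 2 were called, or 0.00833%, and 1885 had an unadjusted p under 0.05.

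**Figure D4:**
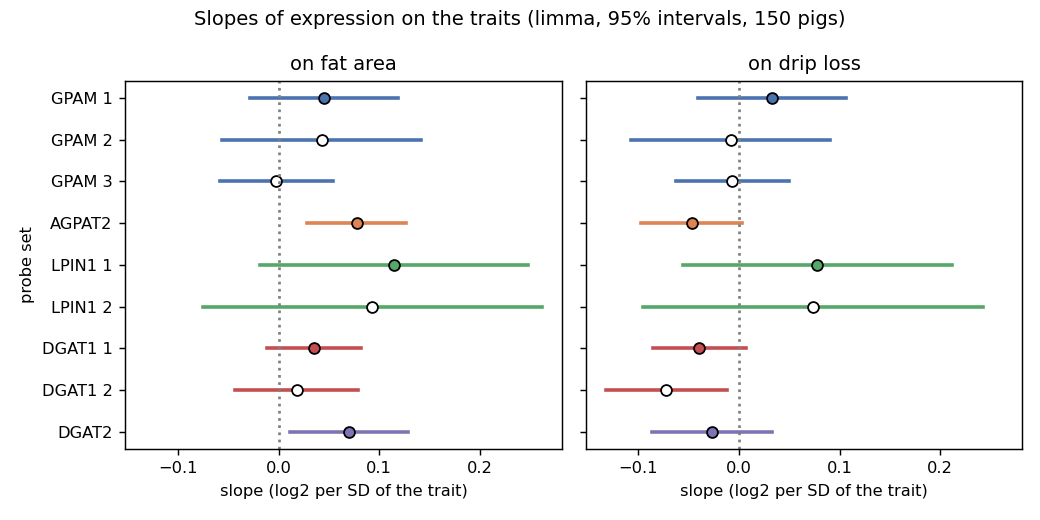
Slope of each probe set on fat area (left) and drip loss (right), in log2 units per SD of the trait, with 95% intervals from limma over 150 pigs; filled points are the brightest probe set of a gene. On fat area the intervals of AGPAT2 and DGAT2 lie above 0, on drip loss that of DGAT1 2 lies below it, and no probe set passed after adjustment over all probe sets.

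Other genes of lipid synthesis were followed from 5 lists, with 68 of 100 listed genes measured. With fat area 0 of the 68 passed, 9 had an unadjusted p under 0.05 and 32 had a positive slope, where 7.08% and 50.5% of all probe sets did. With drip loss 0 of 68 passed, 6 had an unadjusted p under 0.05 and 39 had a positive slope, where 11% and 56.5% of all probe sets did. Of smallest p with fat area were PLIN2, a coat protein of lipid droplets, with -0.32 (SE 0.0811, adjusted p = 0.0637), and FABP1, the fatty acid binding protein of liver, with 0.094 (SE 0.0351, adjusted p = 0.427). Next in order came AGK, a mitochondrial acylglycerol kinase, with -0.0385 (adjusted p = 0.499), CIDEB, a droplet protein, with 0.074 (adjusted p = 0.537), ABHD5, the activator of the triglyceride lipase, with -0.143 (adjusted p = 0.551), and AGPAT3, another acyltransferase of the chain, with -0.066 (adjusted p = 0.658). With drip loss SREBF1, the transcription factor of fatty acid synthesis, had 0.057 (SE 0.0208, adjusted p = 0.340). CDS2, which turns phosphatidic acid towards phospholipids, had -0.056 (adjusted p = 0.375), PTDSS1, a phosphatidylserine synthase, -0.055 (adjusted p = 0.415), and SCAP, which escorts the SREBP proteins, -0.044 (adjusted p = 0.443).

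The relation of these 68 genes to the 5 enzymes, over pigs, was far denser than that to the traits. With AGPAT2 15 passed as positive and 3 as negative, 26.5% of the 68, where of all probe sets 9.87% passed as positive and 8.74% as negative. With DGAT1 it was 20 and 15, 51.5% against 16.6% and 27.8% of all. In total DGAT1 lay close to its background of 44.4%. Most of its calls among the 68 were positive and most over all probe sets negative. The background by direction was not computed for the brighter probe sets alone, so no result by direction is drawn. The share for DGAT1 was 32.4% against 14.6% with the array median as a covariate and 29.4% against 14.3% with 5 principal components. With DGAT2 16 passed as positive and 9 as negative, 36.8% against 8.17% and 10.1%. With LPIN1 it was 6 and 7, 19.1% against 2.35% and 2.78%, and with GPAM 11 and 14, 36.8% against 8.35% and 6.53%. Among probe sets with a mean above the median, 31.7% of 60 genes passed with AGPAT2 against 31.6% of all, and 56.7% with DGAT1 against 60.4%. It was 46.7% against 30.6% with DGAT2, 23.3% against 10.8% with LPIN1 and 43.3% against 25.3% with GPAM. Of the called relations 0 turned sign after quantile normalization, 1 with the array median as a covariate, 10 with 5 principal components and 8 with the probe set of highest SD. No test compares these shares, since the genes of a list are not independent.

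GPAM went with some genes of fatty acid synthesis and supply and against several genes of lipid droplets and lipolysis. SCD, the desaturase that makes oleic acid, had r = 0.504 with it (adjusted p = 8.73e-09), FABP1 0.463, ACSL4 0.474 and ACSL5 0.422, both of them enzymes that activate fatty acids, and FASN, the fatty acid synthase, 0.388. Of the 13 measured genes of this list 6 passed with GPAM as positive and 0 as negative, 46.2% against 14.9% of all probe sets. Those that did not pass, with their r, were ACACA (0.0080), ME1 (0.110), FADS1 (0.0585), ELOVL6 (-0.0438), ACSL1 (-0.0803), FADS2 (-0.133) and SLC25A1 (-0.201). PNPLA3, a droplet protein that rises with feeding in liver, had r = 0.523. PLIN2 had r = -0.537 (adjusted p = 4.47e-10), ABHD5 -0.498, PLIN3 -0.437, MGLL, the monoglyceride lipase, -0.386, and PNPLA2, the triglyceride lipase itself, -0.320; in that list of 16 genes 1 passed as positive and 7 as negative. GPAT4, a form of the enzyme in the endoplasmic reticulum, had r = -0.355 with GPAM, a form in mitochondria. With 5 principal components as covariates 9 of the 68 genes passed with GPAM rather than 25, against 1.84% of all probe sets. The count of negative calls went from 14 to 1 and that of positive calls from 11 to 8.

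DGAT2 also passed with FASN as positive and with ABHD5 and PLIN2 as negative. FASN had r = 0.491 with it (adjusted p = 3.32e-08), SLC25A1, the mitochondrial citrate carrier, 0.381, FADS1, a desaturase of polyunsaturated fatty acids, 0.366, and ME1, the malic enzyme that supplies NADPH, 0.328. In the list of fatty acid supply 6 of 13 passed as positive and 2 as negative, 61.5% against 18.3% of all probe sets. ABHD5 had r = -0.439, PLIN2 -0.362 and GK, the glycerol kinase, -0.425. Among regulators CEBPA, a transcription factor of mature hepatocytes, had 0.447 and SREBF2, that of cholesterol synthesis, 0.416. With 5 principal components as covariates the count of negative calls with DGAT2 went from 9 to 2, and 16 were positive in both fits.

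AGPAT2 passed with 18 of the 68 genes. GPD1, which makes glycerol 3-phosphate, had r = 0.532 (adjusted p = 4.83e-10), SLC25A1 0.575 (adjusted p = 6.49e-12), GPAT4 0.347 and CIDEB 0.469. In the phospholipid branch 5 of 14 passed as positive and 1 as negative, 42.9% against 18.6% of all probe sets. There LCAT, the plasma cholesterol acyltransferase, had 0.552, CHKB, a choline kinase, 0.510, and LPCAT3, which remodels phosphatidylcholine, 0.477. NR1H3, the oxysterol receptor LXR alpha, had r = 0.554 with AGPAT2 and 0.599 with DGAT1. FASN had 0.0378 and SCD -0.146 with AGPAT2, and neither passed.

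DGAT1 passed with 10 of the 14 genes of the phospholipid branch, 7 as positive, which is 71.4% against 44.4% of all probe sets. The closest was PTDSS1 with r = 0.519 (adjusted p = 9.99e-10). ACSL1 had -0.422, AGPAT5, an acyltransferase, -0.405, ABHD5 -0.394 and MTTP and APOB, which load triglyceride into lipoproteins, -0.390 and -0.378. The median level of the array had an r of -0.430 with DGAT1, against -0.211 with AGPAT2 and -0.172 with DGAT2. With that median as a covariate, 22 of the 68 genes passed with DGAT1 rather than 35, against 14.6% of all probe sets. The count of negative calls went from 15 to 5 and that of positive calls from 20 to 17.

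LPIN1 passed with fewer genes. LPIN2, its relative with the same activity, had r = 0.452 (adjusted p = 2.28e-06) and GK -0.452 (adjusted p = 1.94e-06). PPARGC1A, the coactivator of the fasting response, had 0.398 (adjusted p = 6.4e-05), FOXO1, a transcription factor held back by insulin, 0.354 (adjusted p = 0.000817), PNPLA2 0.385 and INSIG1, which retains the SREBP proteins, 0.309. LPCAT3 had -0.365, PLIN2 -0.283, ACSL1 -0.279 and FASN 0.277. Without the 13 arrays that stand apart 8 of the 68 genes passed with LPIN1 rather than 13. That was 11.8% against 3.7% of all probe sets, where all arrays gave 19.1% against 5.13%. Over all arrays 5 passed with LPIN1 2 in its place, 7.35% against 2.88%.

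**Figure D5:**
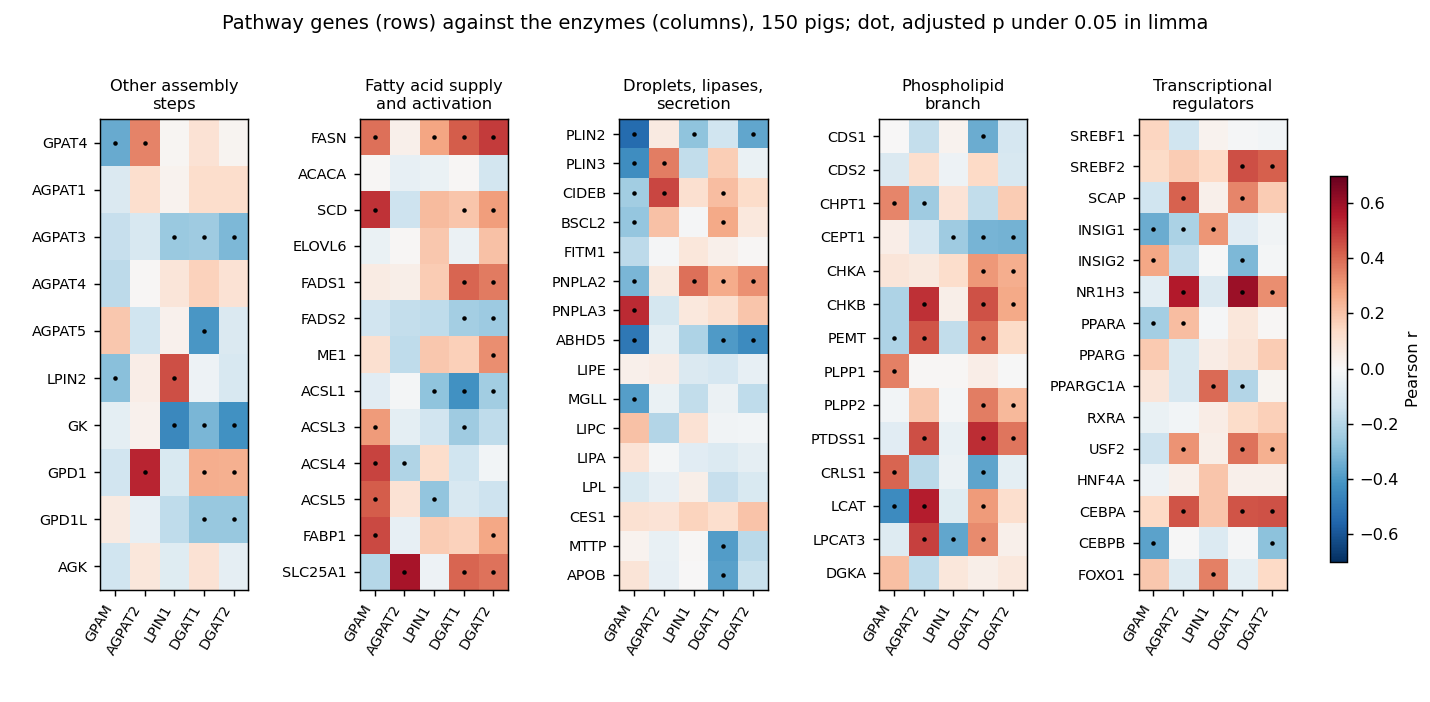
Pearson r of 68 genes of lipid synthesis (rows, in 5 lists) with the 5 enzymes (columns) over 150 pigs; dots mark an adjusted p under 0.05 in limma over all probe sets. GPAM is red with SCD, PNPLA3, ACSL4 and FABP1 and blue with PLIN2 and ABHD5, AGPAT2 is red with SLC25A1, NR1H3, LCAT and GPD1, and LPIN1 is red with LPIN2 and PPARGC1A and blue with GK.

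Likeness in pattern over the whole array is Pearson's r over the 150 pigs, with 1 probe set per gene, and it is given as a description of genes picked for it. GPAM was most like ATP23 (0.670), TCEA3 (0.593), LOC100518620 (0.561), ENPP2, the secreted enzyme that makes lysophosphatidic acid (0.560), and FDFT1, the squalene synthase of cholesterol synthesis (0.560). It was least like CPT1A, which admits fatty acids to mitochondria (-0.589), PC, the pyruvate carboxylase (-0.588), and APOA4, an apolipoprotein (-0.580). Without the 13 arrays that stand apart these 3 had r of -0.596, -0.589 and -0.600.

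LPIN1 was most like WWP2, a ubiquitin ligase (0.651), MKNK1, a kinase of translation initiation (0.605), TSC22D3, a glucocorticoid-induced gene (0.529), SIK3, a salt-inducible kinase (0.521), and RGCC (0.518). It was least like SEC24D, a coat protein of vesicles leaving the endoplasmic reticulum (-0.517), LRRC59, a membrane protein of that compartment (-0.516), and SLC39A7, a zinc transporter (-0.499). MKNK1 also had r = 0.523 with DGAT2, and WWP2 0.348.

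DGAT2 was most like MAP2K2, a kinase of the ERK cascade (0.612), MAOB, a monoamine oxidase (0.609), HOGA1, an enzyme of hydroxyproline breakdown (0.607), ECI1, an isomerase of fatty acid oxidation (0.592), and MACROD1 (0.592), and least like FGG, the fibrinogen gamma chain (-0.568), RPL7L1 (-0.524) and LOC100522887 (-0.516). DGAT1 was most like IDH3G, a subunit of isocitrate dehydrogenase (0.704), NDUFA10, a subunit of complex I (0.692), SERINC2 (0.681), CTSD, a lysosomal protease (0.681), and MAP2K2 (0.671), and least like FAM49B (-0.595), ORMDL1, a regulator of sphingolipid synthesis (-0.583), and C14H10orf99 (-0.574). MAP2K2 was thus near the top for both DGAT enzymes, and its r with AGPAT2 was 0.514.

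AGPAT2 was most like MCRIP2 (0.671), STUB1, a ubiquitin ligase of misfolded proteins (0.654), SLC25A11, the mitochondrial oxoglutarate carrier (0.651), GLYCTK, the glycerate kinase (0.640), and SLC9A3R1, a membrane scaffold protein (0.636). It was least like TRA2A, a splicing factor (-0.480), NSD3, a histone methyltransferase (-0.467), and SORBS2 (-0.464). STUB1 and SLC9A3R1 had r of 0.552 and 0.592 with DGAT1, and -0.0554 and -0.0600 with GPAM.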

How the data were processed

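Expression was measured in 150 pig livers, 1 Affymetrix Porcine Genome Array each. The values were used as the authors deposited them, on a log2 scale read from their range. GCOS 1.1.1 is named per the submitters' processing notes. How the arrays were corrected and normalized is not given in the sources used here. Of 24123 probe sets, 124 controls were left out. Names came from the array's annotation, checked by Entrez ID against a RefSeq gene table of the pig (10069 probe sets with 1 symbol, 198 with several, 13732 with none).

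Slopes on each trait, or on an enzyme's level, were fitted with limma 3.58.1 (lmFit, eBayes with trend) in R 4.3.3, two-sided, Benjamini-Hochberg adjusted over all probe sets, and called under 0.05. A pair of enzymes was called when both directions of the fit passed. A gene is represented by its probe set of highest mean. Of the enzymes, 36 pairs of probe sets and 18 relations with a trait were computed; their r and rho had two-sided permutation tests of 100000 resamples. The fits and the permutation test were tested on simulated data. Arrays stood apart if their median correlation with the others lay over 3 MAD below the median of all arrays. Pigs were ranked by each trait into 5 groups of 30, ties split in accession order.

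The enzymes and gene lists were chosen with earlier results of these data known. Named besides the enzymes were the 5 most and 3 least alike genes of each, from each list up to 3 genes of largest r with an enzyme, and some of those of smallest p with a trait. Added after their values were seen were FASN and SCD with AGPAT2, ME1 with DGAT2, and values of a gene with a further enzyme. So were ACSL5, ACACA, ELOVL6, FADS2, PLIN3, MGLL and PNPLA2 with GPAM. There were 17 alternatives. Squared terms and the comparison by EIF1AY level were added after seeing the data. The number of arrays limits the precision.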

Additional observations from a re-analysis of the deposited data

How the results depend on the processing

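No enzyme passed with fat area, with drip loss or for the difference of the slopes under any of the 17 alternatives, and 3 to 5 of the 10 pairs passed. AGPAT2 with DGAT2 and DGAT1 with DGAT2 passed in all 16 alternatives run for single pairs; DGAT2 with LPIN1 passed in 15. DGAT2 with GPAM passed in 8 (r up to 0.245). With the probe set of highest SD, r of AGPAT2 and DGAT1 was -0.0894, r of LPIN1 and GPAM -0.0353 and the slope of GPAM on drip loss -0.0083. With 5 principal components, r of LPIN1 and GPAM was -0.158, of AGPAT2 and GPAM 0.158, and the slope of GPAM on fat area -0.025. AGPAT2 and GPAM had r = 0.0133 with the array median and 0.000787 with the 3 prime to 5 prime differences as covariates. Without the 13 arrays that stand apart, r was -0.00948 for DGAT1 and GPAM and -0.00121 for LPIN1 and GPAM. The cause was not tested. As a share of all probe sets, 0.2% were called for fat area with the 3 prime to 5 prime differences, 0.425% with principal components, 0.192% with an SD above 0.25, 0.00417% with the Y-linked mean, 0.275% at an adjusted p under 0.1, 0.246% with the array median and 0.192% without the 13 arrays, against 0.125%; for drip loss 0.00417% with the adipocyte marker mean. Of the called relations of pathway genes with enzymes, 0 turned sign and 98 were still called without the 13 arrays; with principal components 10 turned and 54 were still called, with 20 genes for DGAT1 rather than 35. For DGAT1 that was 29.4% against 14.3% of all probe sets, where the main fit had 51.5% against 44.4%. After quantile normalization 28 genes passed with AGPAT2 rather than 18. This was 41.2% against 35.9% of all probe sets, where the main fit had 26.5% against 18.6%. No paired analysis was possible because all pigs form 1 group.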
